A study of Mus musculus with 14 samples.

Results

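The genes described here are those of the neuropeptides VIP (vasoactive intestinal peptide, Vip) and PACAP (pituitary adenylate cyclase-activating peptide, Adcyap1), their receptors Vipr1, Vipr2 and Adcyap1r1, and Adnp, the activity-dependent neuroprotector homeobox gene. They were taken as all probes whose single gene symbol in the array's annotation is one of these 6 names, which gave 6 of the 15094 named genes and 7 of the 21582 probes on the array, with 2 for Adcyap1r1. All 7 passed the filter, a measured value on 4 or more arrays per group, as did 20876 probes in all. The genes were selected on measured values: Vipr2 was chosen by its ratio to the control pool, the lowest of all probes in both diet groups, and the others belong to the same signalling family. The members' ratios to the pool are therefore given as a description, with no test against the pool, and the comparison tested is that between the diet groups.

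RNA of C57Bl6 mouse fetuses was hybridised to 14 two-colour arrays. The dams of the alcohol-fed group (n = 7) had ethanol at roughly 180 to 200 mg/dl between gestational days 15 and 18. Those of the pair-fed group (n = 7) were given maltose dextrin instead. Fetuses of exposed mothers were delivered on gestational day 19. The sample was labelled with Cy5, and every array carried in Cy3 the same pool, total RNA of 7 animals with free access to food and water, which the labels also call weight matched. The protocol speaks of 4 days of exposure, the titles of 5, and no label names a tissue. Whether each sample is a litter of its own is not stated, and the p-values thus cover only the spread between these samples, part of which may be technical.

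VIP and PACAP are related peptides of the secretin and glucagon family. Their receptors are class B G protein-coupled receptors that raise cyclic AMP. Vipr1 and Vipr2 encode VPAC1 and VPAC2, which bind both peptides, and Adcyap1r1 encodes PAC1, which prefers PACAP. Adnp encodes a chromatin-associated protein and was first found as a gene induced by VIP in glial cells. Peptides derived from it protect mouse embryos in models of fetal alcohol exposure.

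The start regions of the peptide gene Vip and of the receptor gene Vipr2 are shown because VIP signals through cyclic AMP, and the human VIP gene is a known target of the cyclic AMP pathway through an element just before its start. Capitals mark the core motif of the cyclic AMP response element, TGACG or, on the other strand, CGTCA. The sequences are from RefSeq (GRCm38.p6), 250 bases before to 50 after the gene's start, on the gene's strand. The Vip window is chr10:5638968-5639267 and the Vipr2 window is chr12:116077476-116077775, both on the + strand.
Vip: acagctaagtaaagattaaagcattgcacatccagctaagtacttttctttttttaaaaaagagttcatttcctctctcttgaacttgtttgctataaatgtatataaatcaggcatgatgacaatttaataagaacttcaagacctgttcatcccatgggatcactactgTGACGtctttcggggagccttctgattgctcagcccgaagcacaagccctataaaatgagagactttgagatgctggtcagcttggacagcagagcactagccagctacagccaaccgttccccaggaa
Vipr2: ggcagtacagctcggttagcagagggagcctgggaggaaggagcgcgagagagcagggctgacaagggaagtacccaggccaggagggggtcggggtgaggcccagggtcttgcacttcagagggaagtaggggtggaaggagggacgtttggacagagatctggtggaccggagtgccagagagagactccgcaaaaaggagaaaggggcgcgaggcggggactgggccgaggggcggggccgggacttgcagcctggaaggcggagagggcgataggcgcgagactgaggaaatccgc
In the Vip window the core motif began 79 bases before the start, and the Vipr2 window held none. All 6 genes were matched in the table, in 7 windows, since Adcyap1 has 2 starts. The core motif lay in the windows of 4 genes, Vip, Adcyap1, Vipr1 and Adnp, and not in those of Vipr2 and Adcyap1r1, against 20.8% of all 32851 windows. The full palindrome TGACGTCA, which holds the core motif on each strand, was in none of the 7 windows and in 1.79% of all windows. The letters alone do not show that a factor binds there.

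The values are log2 ratios with each array's median set to 0, and positive values are taken as sample over pool. The labels list the sample channel first, which makes this direction likely without stating it, and if it is the opposite, every sign below turns. With the dyes never swapped, dye and difference from the pool cannot be told apart. No spot brightness was used here, so it is not known which spots lay above background. Between 2.57% and 14.6% of an array's values were exact zeros or the table's highest value and were left out as placeholders. Pairs of arrays had r between 0.263 and 0.698 over the probes, and probes are no independent replicates.

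Both peptide genes were measured on nearly all arrays, and their mean ratios lay on opposite sides of the pool, Vip below and Adcyap1 above. Vip had values from -3.79 to -0.68 (median -1.87) on the 7 alcohol-fed arrays, and from -2.53 to -0.60 (median -1.85) on the 6 pair-fed arrays with a value. All 13 arrays lay below the pool, with alcohol-fed replicate 3 the lowest, and the groups overlapped. The mean log2 ratio of Vip was -2.10 ± 0.96 (SD, n = 7) in the alcohol-fed group and -1.70 ± 0.75 (SD, n = 6) in the pair-fed group.

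Adcyap1, which encodes the precursor of PACAP, had ratios from 0.82 to 1.85 (median 0.94) on alcohol-fed arrays and from -0.44 to 1.92 (median 0.585) on pair-fed arrays. All 7 alcohol-fed arrays were above the pool, as were 5 of 7 pair-fed arrays, with pair-fed replicates 5 and 6 below it. As deposited, pair-fed replicates 6 and 7 were below it, at -0.612 and -0.035, and replicate 5 stood at 0.119. The mean ratio was 1.14 ± 0.40 (SD, n = 7) in the alcohol-fed group and 0.67 ± 0.96 (SD, n = 7) in the pair-fed group. The alcohol-fed arrays were close together: their SD was lower than that of all but 3.74% of tested probes, while the pair-fed SD stood at the 50.8th percentile. Every alcohol-fed array was above the median of the pair-fed arrays, and none above the highest of them.

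Among the receptors, Vipr1 lay below the pool on every array. Its ratios ran from -2.69 to -1.17 (median -2.10) on alcohol-fed arrays and from -2.77 to -0.397 (median -2.50) on pair-fed arrays. The mean was -2.00 ± 0.54 (SD, n = 7) in the alcohol-fed group and -2.11 ± 0.81 (SD, n = 7) in the pair-fed group, about a 4.01-fold and a 4.31-fold lower signal than the pool. After centring, pair-fed replicate 7 stood apart from the other pair-fed arrays at the upper end. As deposited its ratio was -1.017, with the next pair-fed array at -1.786 and alcohol-fed replicate 2 at -1.022. The pair-fed SD was 0.54 as deposited, against 0.81 after centring.

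Vipr2, a receptor known from smooth muscle, lymphocytes and the suprachiasmatic clock, had the lowest mean ratio of all 20876 tested probes in both groups. Its ratios ran from -8.61 to -6.78 (median -7.15) on alcohol-fed arrays and from -7.69 to -6.61 (median -7.14) on pair-fed arrays. The mean was -7.52 ± 0.75 (SD, n = 7) in the alcohol-fed group and -7.07 ± 0.43 (SD, n = 7) in the pair-fed group. As folds, the Vipr2 means were 184-fold and 135-fold below the pool. After centring, alcohol-fed replicates 2, 3 and 5 were below all pair-fed arrays, and the other 4 alcohol-fed arrays lay within the pair-fed range. As deposited, alcohol-fed replicate 5, at -7.381, was above pair-fed replicate 6, at -7.41.

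Vipr2 stood apart from the next probes in the order. The mean ratio next to it was 0.89 higher in the alcohol-fed group, that of an unnamed probe (J04576, -6.63 ± 0.64, SD), and 0.73 higher in the pair-fed group, that of the chemokine gene Ccl5 (-6.34 ± 0.64, SD). The named genes nearest to Vipr2 over both groups were the zinc-sensing receptor Gpr39 (-6.41 in alcohol-fed and -6.33 in pair-fed), the RNA-binding protein gene Bicc1 (-6.14 and -6.28), the kinase gene Wnk2 (-5.97 and -6.31), mitochondrial carbonic anhydrase Car5b (-5.99 and -6.29) and Ccl5 (-5.68 in alcohol-fed).

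**Figure D1:**
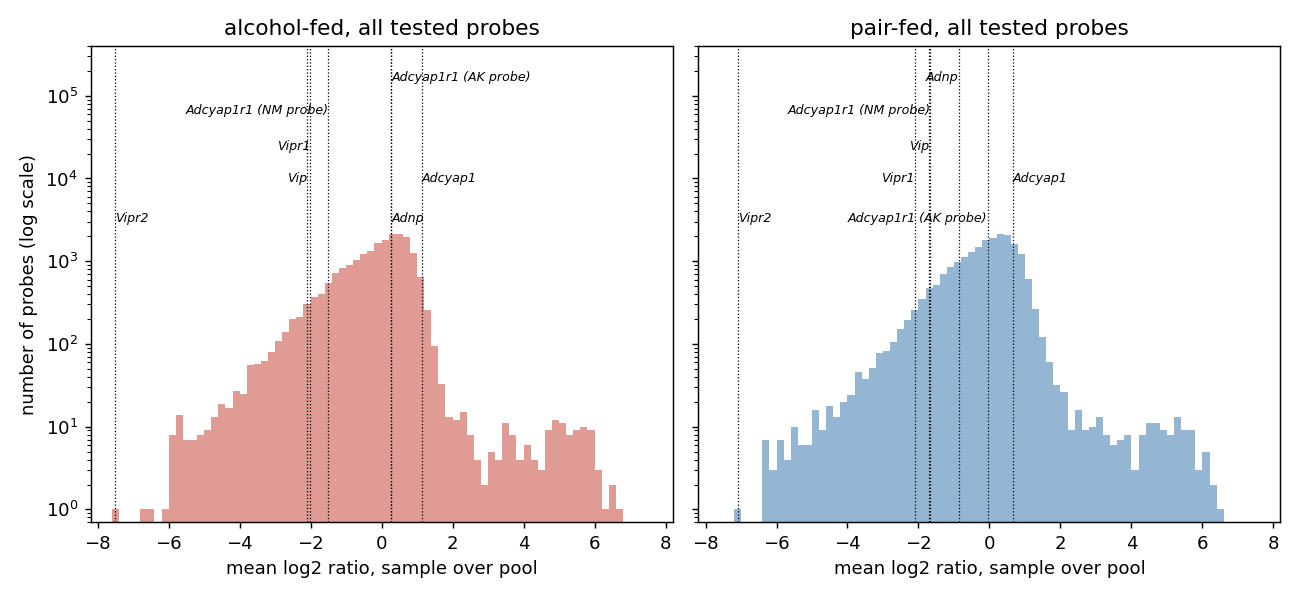
Histograms of the mean log2 ratio (x axis, sample over pool) of all 20876 tested probes, on a log count axis, for alcohol-fed arrays on the left and pair-fed arrays on the right, with dotted lines at the 7 member probes. Vipr2 sits alone at the lower end, at -7.52 in the alcohol-fed group and -7.07 in the pair-fed group, while Vip, Vipr1 and one Adcyap1r1 probe lie on the lower slope and Adcyap1 on the upper one.

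Before centring, Vipr2 was among the steadiest probes of the table. As deposited its ratio ran from -7.99 to -6.22 over all 14 arrays, with an SD of 0.44 that was lower than that of all but 1.01% of tested probes, whose median SD was 1.04. The array medians, without placeholders, ran from -0.38 to 0.62 in the alcohol-fed group and from -0.62 to 0.68 in the pair-fed group. Over all 14 arrays the deposited Vipr2 ratio and these medians gave Pearson r = -0.10 and Spearman rho = -0.05 (permutation p = 0.743 and 0.859), and r = -0.31 without the 2 arrays farthest from the middle. Within the groups the signs were opposite, r = -0.88 in alcohol-fed and 0.52 in pair-fed arrays. Centring subtracts that median, and by construction it turns a steady ratio against it. The centred Vipr2 ratio had r = -0.71 with the array median over 14 arrays and -0.48 within pair-fed arrays. Within alcohol-fed arrays it had r = -0.97, where the deposited ratio already had -0.88. The SD of Vipr2 in the alcohol-fed group was 0.36 as deposited, against 0.75 after centring.

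**Figure D2:**
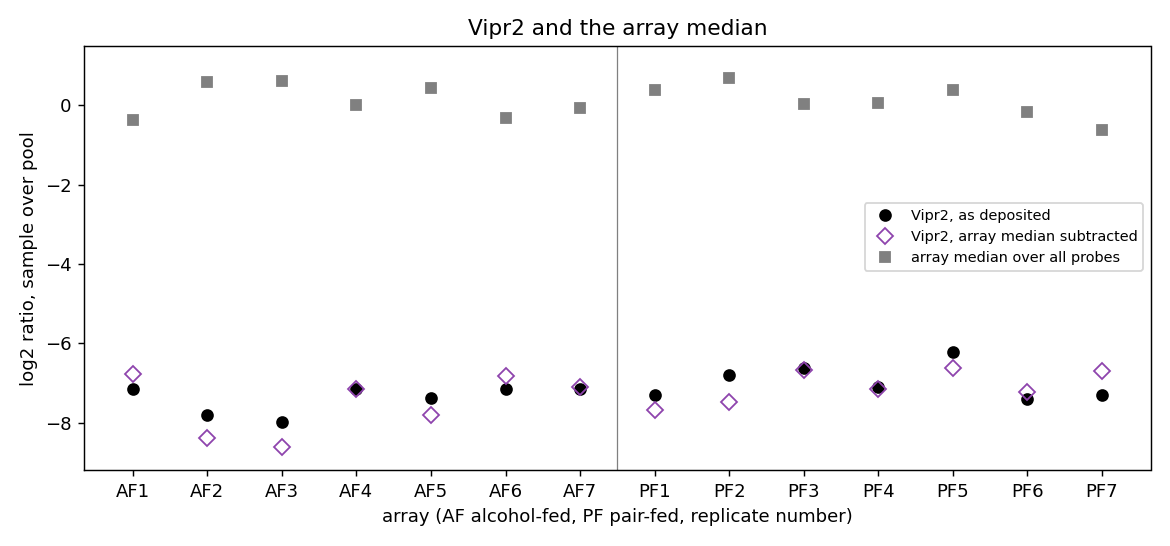
Log2 ratio (y axis) of Vipr2 on each array (x axis), as deposited (filled circles) and after the array median was subtracted (open diamonds), with the array medians over all probes as grey squares. The deposited values stay between -7.99 and -6.22, and the centred ones go furthest down on alcohol-fed replicates 2 and 3, whose array medians are the highest of that group.

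Adcyap1r1 was the only member with 2 probes, and they gave different ratios. The probe for NM_007407 ran from -3.71 to -0.07 (median -1.33) on alcohol-fed arrays and from -2.66 to -0.91 (median -1.46) on pair-fed arrays. After centring it was below the pool on all 14. As deposited, alcohol-fed replicates 2 and 3 stood above the pool, at 0.243 and 0.549. The probe for AK013587 ran from -1.87 to 1.27 (median 0.55) on the 6 alcohol-fed arrays with a value and from -2.02 to 0.71 (median 0.30) on pair-fed arrays, on both sides of the pool. The means were -1.50 ± 1.34 (SD, n = 7) and -1.67 ± 0.73 (SD, n = 7) in alcohol-fed and pair-fed arrays for the NM_007407 probe. For the AK013587 probe they were 0.27 ± 1.14 (SD, n = 6) and -0.05 ± 0.95 (SD, n = 7). Over the 13 arrays with both values no relation between the 2 probes was detected (r = -0.08, rho = 0.05, permutation p = 0.798 and 0.877), so no single value is given for the gene.

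Adnp had the largest SD of the members in the pair-fed group and, after the NM_007407 probe, in the alcohol-fed group. Its ratios ran from -2.07 to 1.24 (median 0.72) on alcohol-fed arrays and from -2.70 to 1.54 (median -1.73) on pair-fed arrays. Alcohol-fed replicates 1 to 5 and pair-fed replicates 2, 3 and 4 were above the pool, and the other 6 arrays below it. The mean was 0.28 ± 1.18 (SD, n = 7) in the alcohol-fed group and -0.86 ± 1.64 (SD, n = 7) in the pair-fed group, and these SDs stood at the 76.4th and 86.3rd percentile of all tested probes. The 3 arrays with the most placeholders, alcohol-fed replicate 6 with 1708 and pair-fed replicates 6 and 7 with 3155 and 2052, were all among the 6 low ones. Over 14 arrays the centred Adnp ratio and the number of placeholders gave r = -0.53 and rho = -0.24 (permutation p = 0.0334 and 0.42, adjusted 0.156 and 0.599), and r = -0.03 without the 2 arrays farthest from the middle. Within the groups r was -0.23 in alcohol-fed and -0.55 in pair-fed arrays. As deposited, Adnp and the placeholders gave r = -0.63 and rho = -0.50 (permutation p = 0.00754 and 0.0693, adjusted 0.0704 and 0.22). Without the 2 farthest arrays r was then -0.20. The deposited ratio and the array median gave r = 0.50 and rho = 0.64 (permutation p = 0.07 and 0.0168, adjusted 0.196 and 0.0902). The part of array quality in the Adnp values was not tested.

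**Figure D3:**
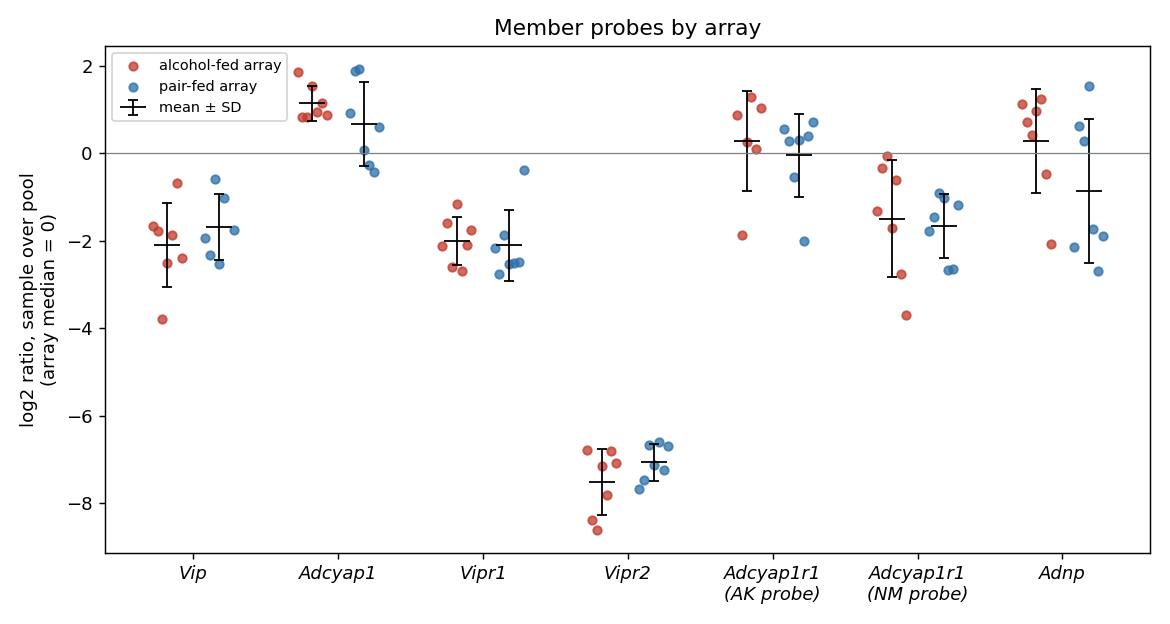
Centred log2 ratio (y axis, sample over pool) of each member probe on every array, alcohol-fed in red and pair-fed in blue, with the mean and SD in black. Vipr2 lies between -8.61 and -6.61, apart from all other members, whose lowest value is -3.79, and Adnp splits into arrays above and below 0 in both groups.

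By mean ratio the order in the alcohol-fed group was Vipr2, Vip, Vipr1, Adcyap1r1 (NM_007407), Adcyap1r1 (AK013587), Adnp and Adcyap1. In the pair-fed group it was Vipr2, Vipr1, Vip, Adcyap1r1 (NM_007407), Adnp, Adcyap1r1 (AK013587) and Adcyap1. Vipr2 was separated from its neighbour in that order by 5.42 in the alcohol-fed and 4.97 in the pair-fed group, with no overlap of arrays. All other neighbours overlapped in both groups, and the single gap among them that was larger than the larger SD of the pair was that of 1.78 between the Adcyap1r1 probes in the alcohol-fed group. These are ratios to the same pool and do not order the genes by amount of RNA.

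Over all tested probes, limma called 23.5% different from the pool at an adjusted p under 0.05 in the alcohol-fed group (8.02% higher, 15.5% lower) and 21.3% in the pair-fed group (7.86% higher, 13.5% lower). No such call is given for the members, whose choice used these ratios. The shares are the background for the lists of other genes further on. Of all calls 34.1% were higher in the alcohol-fed and 36.9% in the pair-fed group, against 44.2% and 47.5% with values as deposited and 48.7% and 48.4% with quantile normalization. If the ratios run the other way, these are the shares of lower calls. Those settings put the median over all probes at 0.14 in the alcohol-fed group, against 0.01 with centred arrays.

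The comparison of alcohol-fed with pair-fed fetuses asks how ethanol differed from the matched sugar diet, and the pool cancels in it. None of the 7 member probes passed: limma called 0 at an adjusted p under 0.05, where 0% of all tested probes passed and 881 of 20876 (4.22%) had an unadjusted p under 0.05. No member was among those, and all 7 had a limma adjusted p of 0.9996. The groups overlapped for every member, as for all but 0.115% of probes.

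Adnp had the largest difference, 1.14 ± 0.69 (log2, alcohol-fed minus pair-fed, ± limma SE), with a 95% interval from -0.31 to 2.59 and an exact permutation p of 0.166 (two-sided). Of the alcohol-fed arrays 6 of 7 were above the pair-fed median. For Adcyap1 the difference was 0.47 ± 0.43, with an interval from -0.44 to 1.38 and an exact permutation p of 0.248. For Vipr2 the difference was -0.45 ± 0.39, with an interval from -1.27 to 0.38 and an exact permutation p of 0.198. After centring, 4 of 7 alcohol-fed arrays were below the pair-fed median of Vipr2. The Vipr2 interval left out a 2-fold rise, a log2 difference of 1, and not a 2-fold fall, and the Adcyap1 interval left out a fall of that size and not a rise.

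Vip differed by -0.40 ± 0.50 (interval -1.46 to 0.65) and Vipr1 by 0.10 ± 0.42 (interval -0.77 to 0.98). The Adcyap1r1 probes differed by 0.17 ± 0.55 for NM_007407 (interval -0.9996 to 1.33) and by 0.32 ± 0.56 for AK013587 (interval -0.86 to 1.51). Their exact permutation p-values lay between 0.439 and 0.793, and the lowest of all 7 after Benjamini-Hochberg adjustment over the members was 0.579. With all arrays the Vipr1 interval left out a 2-fold difference in both directions, and that of no other member did. Its upper limit, 0.98, lay close to 1. Without 1 array the Vipr1 difference ran from -0.036 to 0.39, and no interval is given for those fits.

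**Figure D4:**
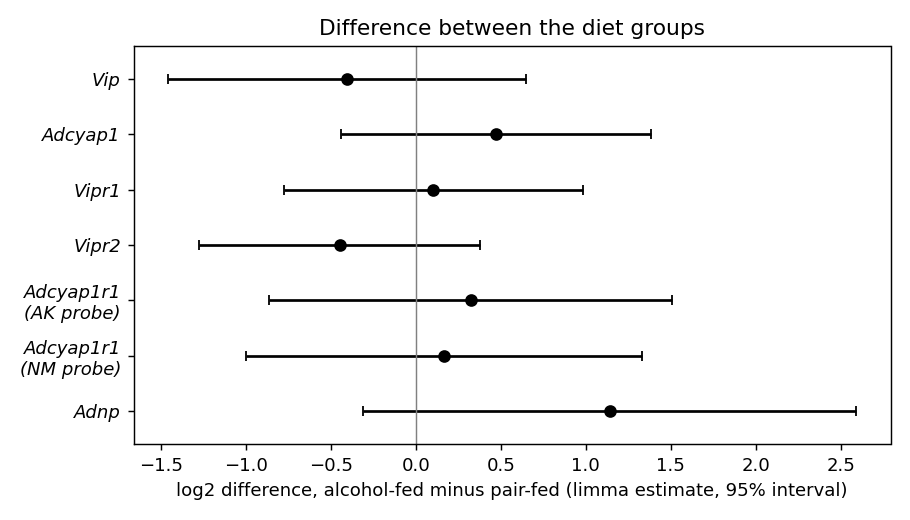
Difference in log2 ratio between alcohol-fed and pair-fed arrays (x axis, limma estimate with 95% interval) for each member probe. All 7 intervals include 0, and that of Adnp, the widest, runs from -0.31 to 2.59.

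Of 21 pairs of member probes none passed after adjustment (lowest Benjamini-Hochberg adjusted permutation p = 0.178). The 2 closest pairs were Adnp with the NM_007407 probe of Adcyap1r1 (r = 0.66, rho = 0.58, permutation p = 0.0104 and 0.0319, 14 arrays) and Vip with Vipr2 (r = 0.64, rho = 0.66, permutation p = 0.0169 and 0.0173, 13 arrays). The first was r = 0.65 without the 2 arrays farthest from the middle in the NM_007407 probe. The second was lower, r = 0.32, without the 2 arrays farthest from the middle in Vip. Within alcohol-fed and pair-fed arrays r was 0.81 and 0.70 for the first pair and 0.59 and 0.69 for the second. All points share the pool, the array and the array median subtracted from both members.

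Of the 28 relations of member probes with the array median or the number of placeholders, 1 passed by Pearson's r, that of Adcyap1 as deposited with the placeholders (r = -0.75, rho = -0.65, permutation p = 0.00079 and 0.0149, adjusted 0.0221 and 0.0902). It was r = -0.48 without the 2 arrays farthest from the middle, -0.58 within alcohol-fed and -0.75 within pair-fed arrays, and -0.53 (adjusted p = 0.188) once Adcyap1 was centred. By Spearman's rho 2 passed, those of the NM_007407 probe of Adcyap1r1 as deposited with the array median (rho = 0.74) and with the placeholders (rho = -0.75), each at an adjusted permutation p of 0.0494. For the array median r was 0.64 (0.71 without the 2 farthest arrays, 0.83 and 0.37 within alcohol-fed and pair-fed arrays), and for the placeholders r was -0.51 (-0.58, and -0.63 and -0.77).

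The probes whose centred ratios followed a member most closely over the arrays are given as a description, with Pearson's r. For Vipr2 these were 1700049E17Rik and Fars2, a mitochondrial phenylalanyl-tRNA synthetase (0.89 each), and the junction gene Afdn (0.89), over 14 arrays. Their own ratios to the pool were 0.28, -0.87 and 0.20 in the alcohol-fed group, so none was as low as Vipr2. Of 11468 named probes with values on all 14 arrays, 140 had r over 0.7 with Vipr2, against 28 to 41 for Adcyap1, Vipr1, Adnp and the NM_007407 probe. The centred Vipr2 ratio had r = -0.71 with the array median subtracted from every probe, and the part of centring in these numbers was not tested. Over 13 arrays the numbers were 78 of 12557 for Vip and 21 of 11580 for the AK013587 probe.

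For Vip the closest were Chmp1a of the ESCRT complex (0.88), the organic anion transporter Slco1a5 (0.85) and Dnajc30 (0.84), over 13 arrays. For Adcyap1 they were the neuronal membrane protein gene Slitrk1 (0.84), 4930442E04Rik (0.83) and cytochrome c, Cycs (0.80). For Vipr1 they were the glutathione transferase Gstm5 (0.86), 4930519K11Rik (0.85) and Arhgap26 (0.85). For Adnp they were the calpain gene Capn12 (0.84), the splicing factor gene Zranb2 (0.83) and the acetyltransferase Nat2 (0.81). The 2 Adcyap1r1 probes had no such gene in common: NM_007407 was closest to the sodium pump subunit Atp1b3 (0.83), the tryptase Tpsg1 (0.79) and Dcaf12 (0.78), and AK013587 to the neuronal gene Cend1 (0.85), Ilf2 (0.83) and the G protein gene Gnaz (0.82).

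Other genes of the pathway were taken from 5 lists of 108 genes in all, of which 88 were tested. Between alcohol-fed and pair-fed arrays 0 of the 88 passed by limma. The list medians of that difference lay between -0.17 (cyclic AMP-responsive genes) and 0.30 (neuropeptide processing), against 0.01 over all probes. Each gene named below is given with its limma SE, and none of the differences between the groups passed (limma adjusted p of at least 0.9996).

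Of 20 tested peptides, receptors and partners of the same class B family, 0 were higher than the pool and 5 lower in the alcohol-fed group, and 0 and 4 in the pair-fed group. Their median ratio was -0.12 and -0.25, against 0.01 and -0.03 over all probes. The receptor of glucagon-like peptide 2, Glp2r, stood at -2.42 ± 0.52 on 5 alcohol-fed arrays and -2.01 ± 0.47 on 6 pair-fed arrays (its other probe at -2.00 and -1.10). Crhr2, a receptor for urocortins, stood at -1.09 ± 0.36 on 7 alcohol-fed and -1.75 ± 0.43 on 5 pair-fed arrays. The smallest p between the groups belonged to the parathyroid hormone receptor Pth2r (1.24 ± 0.53, other probe -0.52) and to Glp1r, the receptor of glucagon-like peptide 1 (1.19 ± 0.52).

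Downstream of the receptors, 29 genes were tested: G proteins, adenylyl cyclases, protein kinase A, phosphodiesterases, and transcription factors and coactivators such as Creb1 and Crebbp. Of these, 3 were higher than the pool and 7 lower in the alcohol-fed group. In the pair-fed group 3 were higher, 4 lower and 1 had probes called both ways, and the medians were 0.14 and -0.18. The cyclic AMP phosphodiesterases Pde4a (-3.87 ± 0.43 in alcohol-fed and -4.56 ± 0.43 in pair-fed) and Pde4d (-3.60 ± 0.44 and -3.62 ± 0.44) were farthest below, although the other Pde4d probe stood at -0.28 and -0.44. Between the groups Prkar2a, a regulatory subunit of protein kinase A, differed by 0.63 ± 0.35 (its other 3 probes between -0.18 and 0.96) and Pde3a by 0.73 ± 0.45.

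Of 14 cyclic AMP-responsive genes, 2 were higher than the pool and 5 lower in the alcohol-fed group, and 0 and 3 in the pair-fed group, with medians of -0.48 and -0.19. The metabolic coactivator Ppargc1a stood at -3.57 ± 0.46 in alcohol-fed and -2.71 ± 0.46 in pair-fed arrays, and tyrosine hydroxylase Th at -2.13 ± 0.45 and -1.96 ± 0.49 (6 pair-fed arrays). The smallest p between the groups belonged to the proenkephalin gene Penk (-1.88 ± 0.65) and to the immediate early gene Egr1 (-2.21 ± 0.80, measured on 5 alcohol-fed and 6 pair-fed arrays).

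Of 16 Adnp partners and genes of neuroprotection, 2 were higher than the pool and 1 lower in the alcohol-fed group, and 2 and 3 in the pair-fed group, with medians of 0.43 and 0.26. The microtubule end-binding gene Mapre1 stood at 3.53 ± 0.53 in alcohol-fed and 2.97 ± 0.53 in pair-fed arrays, with its other probe at 0.75 and 0.51. The growth factor gene Igf1 stood at -2.49 ± 0.36 and -2.39 ± 0.36. The GABA receptor subunit Gabra5 differed by 1.76 ± 0.69 between the groups and Cbx3, a heterochromatin protein gene, by 0.93 ± 0.47.

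Of 9 genes of neuropeptide processing and breakdown, 0 were higher and 1 lower in the alcohol-fed group, and 0 and 2 in the pair-fed group, with medians of -0.08 and -0.04. Dpp4, a peptidase that cleaves VIP and PACAP, stood at -2.16 ± 0.37 on 6 alcohol-fed and -2.16 ± 0.34 on 7 pair-fed arrays. The neprilysin gene Mme differed by 0.95 ± 0.63 between the groups and the prohormone convertase Pcsk1 by 0.64 ± 0.48.

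**Figure D5:**
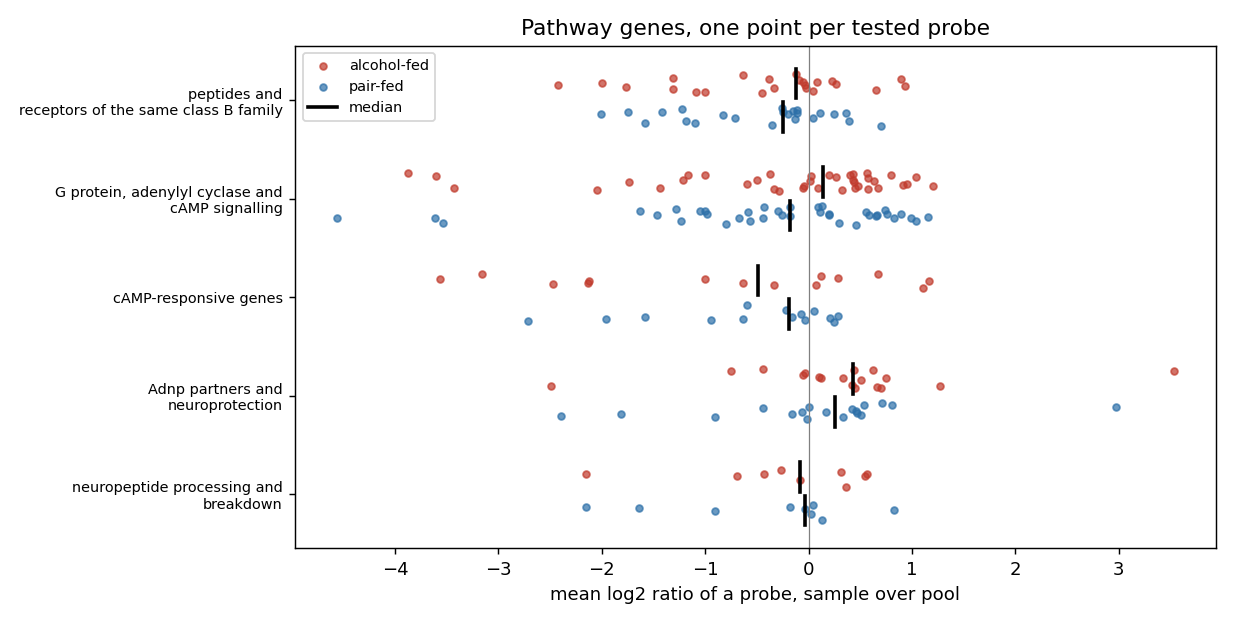
Mean log2 ratio (x axis, sample over pool) of each tested probe of the 5 pathway lists, alcohol-fed in red above pair-fed in blue, with the list median as a black bar. Pde4a, at -3.87 in alcohol-fed and -4.56 in pair-fed arrays, is at the lower end and a Mapre1 probe, at 3.53 and 2.97, at the upper end.

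Markers of cells that can express these receptors and peptides were counted in the same way. Of 9 smooth muscle markers 0 were higher and 5 lower in the alcohol-fed group (median -0.71) and 1 and 4 in the pair-fed group (median -0.91). Of 8 lymphocyte markers 0 were higher and 2 lower in both groups (medians -0.05 and -0.06). Of 9 neuronal markers none was called in the alcohol-fed group (median 0.64) and 1 was higher in the pair-fed group (median 0.38). Of 9 markers of autonomic, enteric and sensory neurons 1 was higher and 2 lower in the alcohol-fed group, and 0 and 3 in the pair-fed group (medians -0.11 and -0.19). Of 9 endocrine markers 4 and 3 were lower and 0 higher (medians -0.41 and -0.85), and of 9 markers of lung and gut epithelium 5 and 3 were lower and 0 higher (medians -0.995 and -0.60). Fewer cells of a type, less RNA per cell and an effect of the dye cannot be told apart in these samples. The part of these markers in the ratios of Vip, Vipr1 and Vipr2 was not tested. Between the diet groups 0 markers of any list passed by limma.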

How the data were processed

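The deposited table holds 1 log2 ratio per probe and array, sample in Cy5 and pool in Cy3 per the labels. That the deposited values are log2 ratios is read from both signs and from the table's highest and lowest values, 16.61 and -9.966, which are log2 of 100000 and of 0.001. The scanner and any correction or scaling of spots: not given in the sources used here. Values of exactly 0 and of 16.61 were set to missing and each array was centred on its median. Probes measured on 4 or more arrays per group were tested with limma 3.58.1 in R 4.3.3 (lmFit, eBayes, all 14 arrays in 1 fit, two-sided), with Benjamini-Hochberg adjustment over 20876 probes. The number of arrays limits the precision. Errors of member ratios are SDs over arrays, and errors of differences and list genes are limma SEs.

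The fit was tested on simulated data: independent normal noise with each probe's SD and missing values taken from these arrays. Differences in quality between arrays were not simulated, so the recovery in the real data may differ. The alcohol-fed against pair-fed fit recovered 29.0% of 4-fold and 75.0% of 8-fold changes among 200 changed of 20876 probes, with 5 and 7 unchanged probes called. Exact permutation tests enumerated all assignments of arrays. Those of correlations used 100000 permutations.

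Gene names are those of the array's old platform annotation, checked by gene number against RefSeq (GRCm38.p6, 15957 of 16635 probes with 1 symbol matched, 0 changed). Members and lists were chosen with earlier results of these data known. Named are all member probes, the 5 named genes nearest Vipr2, the 3 closest profiles per member, and per pathway list the 2 genes with the smallest p between the groups and the 2 farthest from the pool among those called in both. Alternatives were no centring, quantile and scale normalization, placeholders kept, other filters, array weights, robust eBayes, a replicate block and leaving out arrays.

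The samples were not treated as pairs by replicate number, since the sample titles state no pairing. Deviations of same-numbered alcohol-fed and pair-fed arrays correlated above 0.1 for 1 of 7 numbers. For 2 of 7 the same number was the closest. Such correlations cannot show that the samples are unpaired, and a fit with the replicate number as a block is given below.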

Additional observations from a re-analysis of the deposited data

Results flagged for a closer look

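In 2 of 14 groups of arrays tested, 1 array lay farther from the others than the 95% critical value of Dixon's test allows. Chance does so in about 1 of 20 groups. The test used centred ratios and was not run on values as deposited. The first was Vipr1 on pair-fed replicate 7, at -0.397 with the nearest pair-fed array at -1.88. As deposited these stood closer, at -1.017 and -1.786, and the median of replicate 7, -0.62, was the lowest of that group. Without pair-fed replicate 7 the pair-fed mean of Vipr1 was -2.39. The difference, alcohol-fed minus pair-fed, was then 0.39, with the limma test still not passed. The second was the AK013587 probe of Adcyap1r1 on alcohol-fed replicate 3, at -1.87 (-1.866 before rounding) with the nearest alcohol-fed array at 0.10. As deposited these stood at -1.251 and -0.22, and the median of replicate 3, 0.615, was the highest of that group. Without alcohol-fed replicate 3 the alcohol-fed mean of that probe was 0.70 and the difference 0.75, also not passed.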

How the results depend on the processing

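Under 25 alternatives limma called 0 member probes and 0 of all probes between alcohol-fed and pair-fed arrays. Between 561 (of 14666 tested) and 1123 (of 20573 tested) probes had an unadjusted limma p under 0.05. One alternative, which also set the table's lowest value to missing, was chosen after seeing the data. Adnp reached an unadjusted limma p under 0.05 without alcohol-fed replicate 7 (0.0319) or pair-fed replicate 4 (0.0296). Without 1 array the difference lay between 0.83 and 1.54 for Adnp, 0.29 and 0.68 for Adcyap1, -0.57 and -0.27 for Vipr2 and -0.64 and -0.12 for Vip. It crossed 0 for Vipr1 (-0.036 to 0.39) and for the Adcyap1r1 probes NM_007407 (-0.074 to 0.53) and AK013587 (-0.00375 to 0.75), all within their errors of 0 with all arrays. With the replicate number as a block 0 member probes were called between the groups. The Adnp difference was then 1.14 ± 0.56, and the smallest unadjusted limma p of a member 0.0635, against 0.116 without the block. In that fit 4231 and 3978 probes differed from the pool in alcohol-fed and pair-fed arrays, against 4913 and 4450 without the block. With a value required on every array, Vip and the AK013587 probe could not be fitted. That filter left 14666 probes to test, against 20876. It gave 1655 and 1696 lower calls against the pool in alcohol-fed and pair-fed arrays, against 3238 and 2809, so these counts are over different numbers of probes. Quantile normalization gave 2894 higher calls in the alcohol-fed group, against 1675. Without 1 of its own arrays, whichever it was, each group had fewer higher calls. These were 1059 to 1317 in the alcohol-fed group, against 1675, and 1045 to 1530 in the pair-fed group, against 1641. The Vipr2 mean ratio lay between -7.72 and -7.34 in the alcohol-fed and -7.15 and -6.90 in the pair-fed group.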
